A study of Mus musculus with 3 samples.

Results

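The 27 genes described here make cholesterol, sense it or move it, and were taken by gene symbol from the 26661 genes of the deposited table. All 27 were found, each in 1 row, and all reached at least 1 FPKM (fragments scaled by transcript length and sequencing depth) in at least 1 library. They were read by poly(A) RNA-seq in 3 libraries of RAW264.7 cells, a mouse macrophage line from a virus-induced tumour whose genotype the labels give as WT. The control library came from cells in common medium without drugs. The LPS library came from cells given lipopolysaccharide, a bacterial cell wall glycolipid sensed by macrophages, for 6 h at 0.5 µg/ml. The remaining library came from cells given 10 µM harmine, a plant alkaloid that inhibits the kinase DYRK1A, for 0.5 h before the same LPS. No library had harmine alone, so an effect of harmine that needs LPS and one that does not cannot be told apart. With 1 library in each group there is no replicate check and no p-value, and every value below compares these 3 libraries.

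Cells build cholesterol from acetyl-CoA by way of mevalonate, the isoprenoid farnesyl diphosphate, squalene and lanosterol. The genes of these steps are switched together by SREBP-2, a transcription factor held in the endoplasmic reticulum by SCAP and INSIG proteins when sterols are plentiful and released by proteolysis in the Golgi when they run short. In macrophages, which take up large amounts of lipoprotein and dying cells, synthesis is balanced against lysosomal release, esterification and efflux. Oxysterols and interferon signalling are known to lower synthesis.

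The deposited counts summed to between 52845589 and 58169999 per library. They were read as 4 counts to 1 read pair, since in every library more genes held a count of exactly 4 than of 3. The 27 genes held 0.268% of all counts in the control library, 0.206% in the LPS library and 0.215% in the one with harmine. Of 10 macrophage markers, 9 reached 1 FPKM, and the 10 summed to 2141, 2021 and 1586 FPKM in control, LPS and harmine plus LPS. They did not move together: Lyz2 was at 967, 525 and 283 FPKM, Csf1r at 259, 65.8 and 68.2 FPKM, Cd68 at 522, 444 and 602 FPKM and Cd14 at 231, 813 and 476 FPKM, and 4 of the 10 were highest in control. The labels name lung as the tissue. The lung marker Sftpb was at 0 FPKM in control and in harmine plus LPS and at 0.0130 FPKM after LPS. Other lung markers had reads: Ager was at 0.600, 0.662 and 0.921 FPKM in control, LPS and harmine plus LPS. Hopx was at 0.0627, 0.369 and 0.400 FPKM in the same order. Markers of other cell types stood higher in both LPS libraries. The 7 lung and other epithelial markers in the table, of which 4 reached 1 FPKM, summed to 4.83, 14.0 and 20.5 FPKM, and the 7 fibroblast and endothelial markers, of which 4 reached 1 FPKM, to 2.03, 10.1 and 10.0 FPKM. Of 6 hepatocyte and steroidogenic markers, 2 reached 1 FPKM and 1 was highest in control. They summed to 10.2, 30.8 and 35.5 FPKM, mostly from Apoa1, while Alb was at 0 FPKM in control and LPS. Their part in the results below was not tested.

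Promoters are shown for genes whose transcripts parted ways in these libraries: Hmgcs1 and Idi1, which lay within counting error of control with LPS; Mvd, Dhcr7 and Pmvk, which stood far below it; and Insig1, which differed most with harmine. RefSeq (GRCm38.p6) gave windows of 300 bases, 250 before and 50 after a gene start, for 22 of the 27 genes. Each stretch below is 80 bases of such a window, all before the start, and was chosen to hold CCAAT matches. Dhcr7 had 3 windows and Pmvk 2, of which 1 each held a CCAAT match, and that window is shown. Capitals mark the letters CCAAT, or their reverse complement, a box bound by the factor NF-Y that works with SREBP, and the core of a sterol regulatory element (TCACNCCAC).
Hmgcs1, chr13:119690151-119690230, plus strand: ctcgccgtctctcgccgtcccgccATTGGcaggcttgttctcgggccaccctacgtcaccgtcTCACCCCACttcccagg
Idi1, chr13:8885526-8885605, plus strand: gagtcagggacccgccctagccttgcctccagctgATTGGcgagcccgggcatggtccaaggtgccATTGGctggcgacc
Mvd, chr8:122443433-122443512, minus strand: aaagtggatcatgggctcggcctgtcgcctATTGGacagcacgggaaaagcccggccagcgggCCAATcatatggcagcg
Dhcr7, chr7:143830104-143830183, plus strand, annotated start 3: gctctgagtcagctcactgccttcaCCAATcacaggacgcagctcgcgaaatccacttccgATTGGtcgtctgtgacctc
Pmvk, chr3:89454381-89454460, plus strand, annotated start 1: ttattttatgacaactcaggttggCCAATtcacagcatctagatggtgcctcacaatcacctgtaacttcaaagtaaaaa
Insig1, chr5:28071182-28071261, plus strand: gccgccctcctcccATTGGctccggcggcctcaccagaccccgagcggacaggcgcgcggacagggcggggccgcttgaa

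The CCAAT letters, searched on both strands, were in a window of 20 of the 22 genes, all but Acat2 and Scap. By comparison they were in 37.4% of all promoter windows of that length, and in 43.5% of the 8317 genes with a window and at least 1 FPKM. The 20 genes held 42 matches, 39 of them before the start, and 12 genes held 2 or more, with 5 for Mvk and 4 each for Hmgcs1 and Nsdhl. These counts pool all windows of a gene, 30 windows for the 22 genes, and the 2 matches of Srebf1 lie at different starts. The share of expressed genes with 2 or more matches was not computed, so the count of 12 has no background. The GC box GGCGGG, bound by Sp1, was in windows of 18 of the 22 genes, beside 67.5% of expressed genes and 35.3% of all windows. TCACNCCAC was found for 1 of the 22 genes, Hmgcs1, beside 1.37% of expressed genes and 1.24% of all windows. In the members' other windows these letters are not present, which says nothing of other forms of the element. In the members' windows, 1 pair of matches to different motifs overlapped. CCAAT boxes stood in the windows of genes that were far lower with LPS and of genes that were not, for example Mvd and Idi1.

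**Figure D1:**
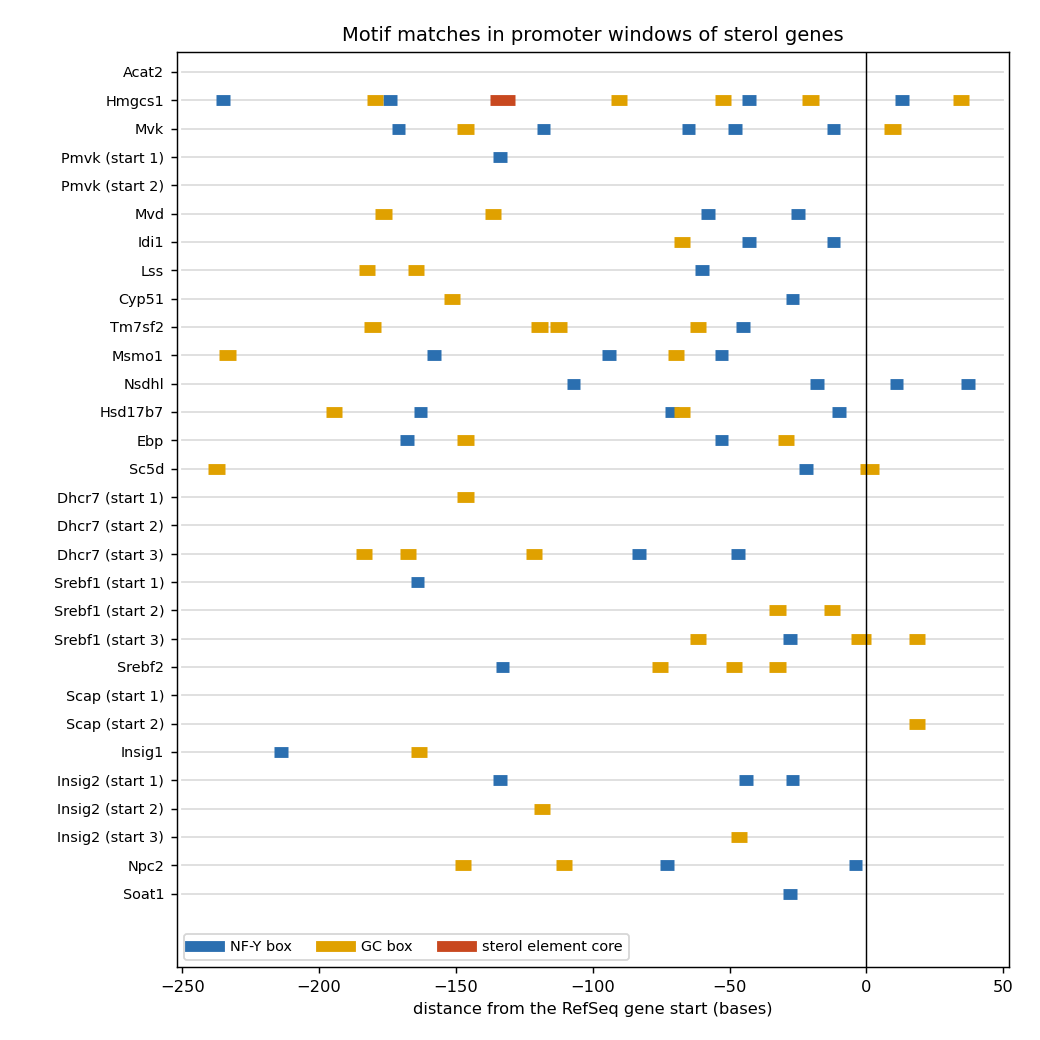
Positions of 3 motifs in 300-base RefSeq promoter windows of 22 sterol genes; the x axis is the distance in bases from the gene start, each row is 1 annotated start, and coloured blocks are matches on either strand. NF-Y boxes (blue) appear in a window of 20 of the 22 genes and the sterol element core (red) in that of Hmgcs1.

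In control the levels of the 27 genes, per length in FPKM, ran from 1.19 FPKM for Tm7sf2 to 71.7 FPKM for Fdps. Srebf2 followed at 37.7 FPKM and Acat2 at 33.4 FPKM, with Npc2 at 29.0 and Mvd at 27.4 FPKM. Msmo1 and Scap, neighbours at 12.4 FPKM each, could not be ordered. Summed over the 27 genes, expression came to 501, 359 and 384 FPKM in control, LPS and harmine plus LPS. Most of that gap lay in the 7 genes of the mevalonate steps, which summed to 198, 108 and 135.0 FPKM, while the 4 genes of sterol movement and storage summed to 61.3, 60.9 and 59.0 FPKM. In bulk RNA, fewer cells of a kind and less RNA per cell cannot be told apart.

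**Figure D2:**
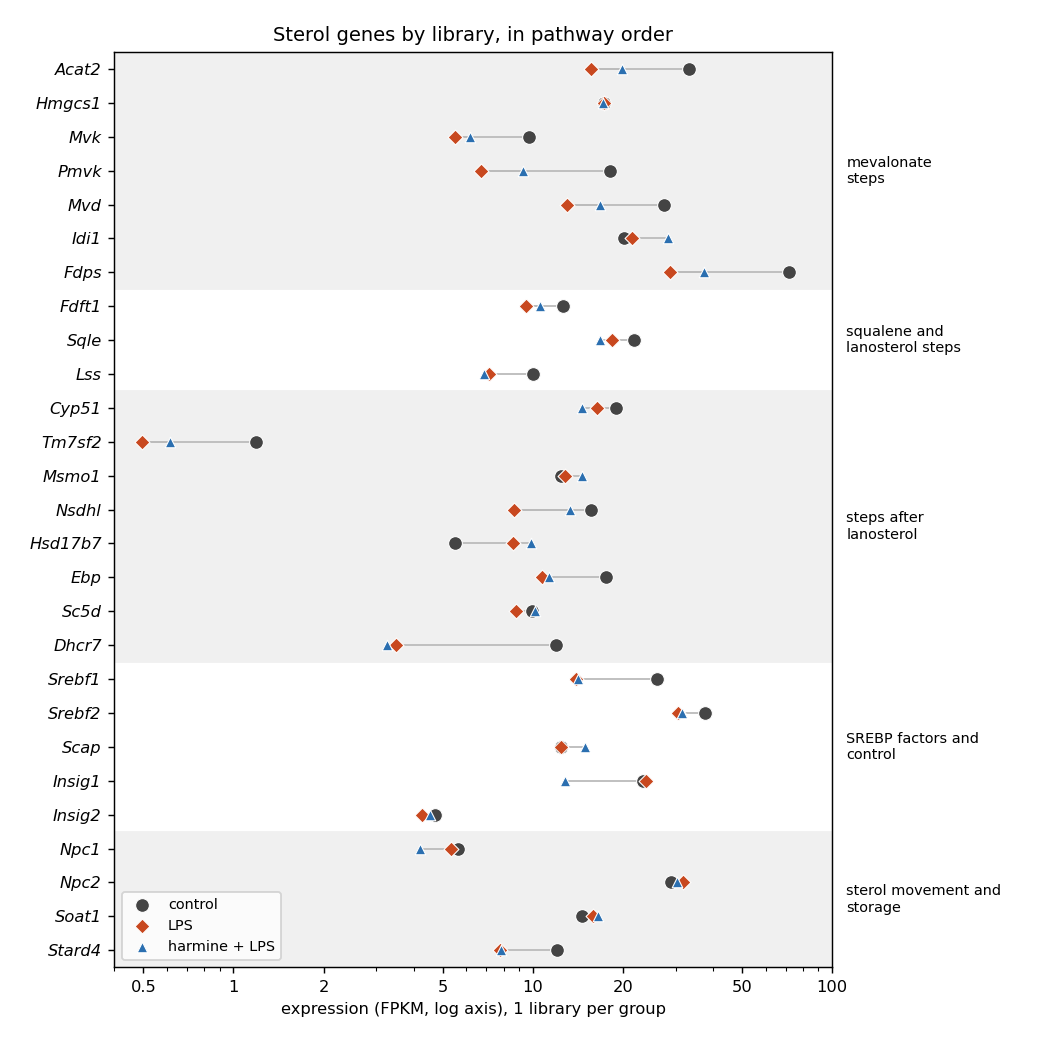
Expression of the 27 sterol genes in FPKM (log axis) in the control (circles), LPS (diamonds) and harmine plus LPS (triangles) libraries, 1 library each, ordered by pathway step. Fdps, Acat2, Mvd, Pmvk and Dhcr7 lie well to the right in control, while the 3 symbols of Hmgcs1 coincide at about 17 FPKM.

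The first comparison asked how the sterol genes stood after 6 h of LPS. The cells held less transcript for 4 enzymes of the mevalonate steps, Acat2, Pmvk, Mvd and Fdps, and for Dhcr7, the last enzyme of synthesis; these were 2-fold or more lower than in control. For the condensing enzyme Hmgcs1, the isomerase Idi1 and the sterol sensor gene Insig1, the ratio to control lay within counting error of 1. Differences were taken on the log2(FPKM + 1) scale, where the added 1 makes differences of low genes too small; folds are plain FPKM ratios. Bracketed ranges are 95% exact intervals for the split of read pairs between the libraries, and they cover counting error only.

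At the 2-fold threshold 5 of 27 genes (18.5%) were lower with LPS, beside 7.21% of the 12197 genes with at least 1 FPKM in any library. None was 2-fold higher, beside 5.79%. At 1.5-fold 9 genes were lower (33.3%), beside 19.3% of all genes, and none higher, beside 11.7%. The median difference was -0.30 log2 for the 27 genes and -0.13 log2 for all genes. The count of 5 depended on settings near the threshold. It was 3 with upper-quartile rescaling, without Acat2 and Mvd, beside 5.56% of all genes. With a pseudocount of 5 FPKM it was 1 (Fdps), beside 2.39% of all genes. Upper-quartile rescaling also moved the median of all genes from -0.13 to -0.02 log2.

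Of the 7 mevalonate genes, 4 (57.1%) were 2-fold or more lower with LPS, beside 7.21% of all genes. With 1 more gene, 5 (71.4%) were 1.5-fold or more lower, beside 19.3% of all genes. The median was -1.02 log2, beside -0.13 log2 for all genes. Fdps (chromosome 3, 89093588 to 89101959) encodes farnesyl diphosphate synthase, which supplies both sterols and prenyl groups. Its level was 71.7 FPKM in control, 28.8 after LPS and 37.4 after harmine plus LPS. Control was high and both LPS libraries low, 2.49-fold (2.36 to 2.63) lower with LPS alone. Pmvk (chromosome 3, 89454541 to 89469013), the phosphomevalonate kinase, was at 18.1, 6.70 and 9.26 FPKM in the same order, 2.70-fold (2.27 to 3.22) lower with LPS. Control again stood above both other libraries.

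Acat2 (chromosome 17, 12942890 to 12960747), the cytosolic thiolase that joins 2 acetyl-CoA units, was at 33.4 FPKM in control, 15.6 after LPS and 19.9 after harmine plus LPS. It was 2.14-fold (1.94 to 2.36) lower with LPS, an interval that includes 2-fold. Mvd (chromosome 8, 122433601 to 122443422), the mevalonate diphosphate decarboxylase, was at 27.4, 13.0 and 16.7 FPKM, 2.11-fold (1.86 to 2.39) lower, also with 2-fold inside the interval. Both genes had their highest value in control and their lowest with LPS. Mvk, the mevalonate kinase that acts just before Pmvk, was at 9.70, 5.48 and 6.16 FPKM and 1.77-fold lower, a difference of -0.72 log2 (-0.93 to -0.52). So the 3 enzymes that act in a row on mevalonate, Mvk, Pmvk and Mvd, were all lower.

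The other 2 mevalonate genes stood apart from these. Hmgcs1 (chromosome 13, 119690379 to 119708260), which condenses acetoacetyl-CoA with acetyl-CoA, was at 17.3 FPKM in control and 17.2 FPKM in each of the other libraries. Its ratio of LPS to control was 0.995 (0.920 to 1.08), and over the 3 libraries it varied least of the 27 genes. Idi1 (chromosome 13, 8885501 to 8892451), which interconverts the isoprenoid building blocks, was at 20.2, 21.5 and 28.4 FPKM, with a ratio of LPS to control of 1.07 (0.982 to 1.16). Thus Idi1 was not distinguishable from control with LPS alone, and it stood highest with harmine plus LPS.

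In the squalene and lanosterol steps none of 3 genes passed 1.5-fold with LPS, beside 11.7% of all genes higher and 19.3% lower. Fdft1, which makes squalene, was at 12.7, 9.52 and 10.6 FPKM in control, LPS and harmine plus LPS. Sqle, the oxygen-dependent squalene epoxidase, was at 21.8, 18.4 and 16.8 FPKM. Lss, the cyclase that forms lanosterol, was at 10.0, 7.14 and 6.86 FPKM. All had their highest value in control, and their ratios of LPS to control were 0.752 (0.676 to 0.836), 0.845 (0.790 to 0.903) and 0.713 (0.662 to 0.768).

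Among the 8 genes after lanosterol, 1 (12.5%) was 2-fold lower with LPS, beside 7.21% of all genes, so that share rests on 1 gene. At 1.5-fold 3 (37.5%) were lower, beside 19.3% of all genes, and none was higher, beside 11.7%. Dhcr7 (chromosome 7, 143823145 to 143848410), the reductase that turns 7-dehydrocholesterol into cholesterol, had the lowest difference of the 27, -1.52 log2, and 1.92% of all genes lay below it. It was at 12.0 FPKM in control, 3.50 after LPS and 3.25 after harmine plus LPS, 3.41-fold (3.01 to 3.89) lower with LPS alone. Sc5d, which makes the substrate of Dhcr7, was at 9.95, 8.77 and 10.2 FPKM. The last 2 enzymes of this branch thus differed in size: Sc5d had a ratio of LPS to control of 0.882 (0.794 to 0.980), Dhcr7 one of 0.293 (0.257 to 0.332).

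Nsdhl and Ebp were also lower. Nsdhl (chromosome X, 72918557 to 72958514), a sterol dehydrogenase that takes part in removing the C4 methyl groups, was at 15.6, 8.69 and 13.3 FPKM, 1.80-fold (1.58 to 2.04) lower with LPS. Ebp, the sterol isomerase, was at 17.6, 10.7 and 11.3 FPKM and 1.64-fold (1.44 to 1.87) lower. In Nsdhl the harmine plus LPS library lay close to control, whereas in Ebp it lay with LPS. Tm7sf2, a sterol reductase whose step a second enzyme can also perform, was lowest of all genes here at 1.19, 0.494 and 0.615 FPKM, from 352, 139 and 179 deposited counts. Its plain ratio was 2.40-fold (1.61 to 3.67) lower with LPS, but -0.55 log2 on the log2(FPKM + 1) scale, and it passed 2-fold with a pseudocount of 0.1 FPKM.

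Hsd17b7 (chromosome 1, 169949535 to 169969241), the ketosteroid reductase that partners Nsdhl, went the other way. It was at 5.50 FPKM in control, 8.61 after LPS and 9.83 after harmine plus LPS, 1.57-fold (1.39 to 1.77) higher with LPS as a plain ratio and 0.57 log2 on the log2(FPKM + 1) scale. Control was the low library. Cyp51, the lanosterol demethylase, was at 19.0, 16.3 and 14.6 FPKM, and Msmo1, the C4 methyl oxidase, at 12.4, 12.8 and 14.6 FPKM. The 3 C4 demethylation genes therefore differed among themselves: Msmo1 had a ratio of LPS to control of 1.03 (0.952 to 1.12), Nsdhl was below control and Hsd17b7 above it.

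Of the 5 genes that control the pathway, 1 (20%) was 1.5-fold lower with LPS, beside 19.3% of all genes, so this share is at the background; none was 1.5-fold higher. Srebf1 (chromosome 11, 60199089 to 60222581), whose SREBP-1 proteins drive mainly fatty acid genes, was at 26.1 FPKM in control, 14.0 after LPS and 14.2 after harmine plus LPS, 1.87-fold (1.74 to 2.00) lower with LPS. Srebf2, encoding SREBP-2, was at 37.7, 30.5 and 31.5 FPKM, 1.24-fold (1.18 to 1.29) lower. Both factors were highest in control and alike in the 2 LPS libraries. Scap, the escort of both, was at 12.4, 12.5 and 14.9 FPKM. Insig2, a retention protein, was at 4.70, 4.26 and 4.55 FPKM, with a ratio of LPS to control of 0.905 (0.755 to 1.08). Insig1, its paralog and itself a target of SREBP, was at 23.4 in control and 23.9 FPKM after LPS, a ratio of 1.02 (0.942 to 1.11).

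None of the 4 genes of sterol movement and storage passed 1.5-fold with LPS on the log2(FPKM + 1) scale. Of all genes, 11.7% were higher and 19.3% lower at that threshold. Npc2 and Npc1, which pass cholesterol out of the lysosome, were at 29.0, 31.9 and 30.4 FPKM and at 5.61, 5.33 and 4.21 FPKM. Soat1, which esterifies cholesterol for storage, was at 14.6, 15.9 and 16.5 FPKM. Stard4, a sterol carrier in the cytosol and a target of SREBP, came nearest at 12.1, 7.80 and 7.85 FPKM, 1.55-fold (1.41 to 1.71) lower with LPS as a plain ratio.

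**Figure D3:**
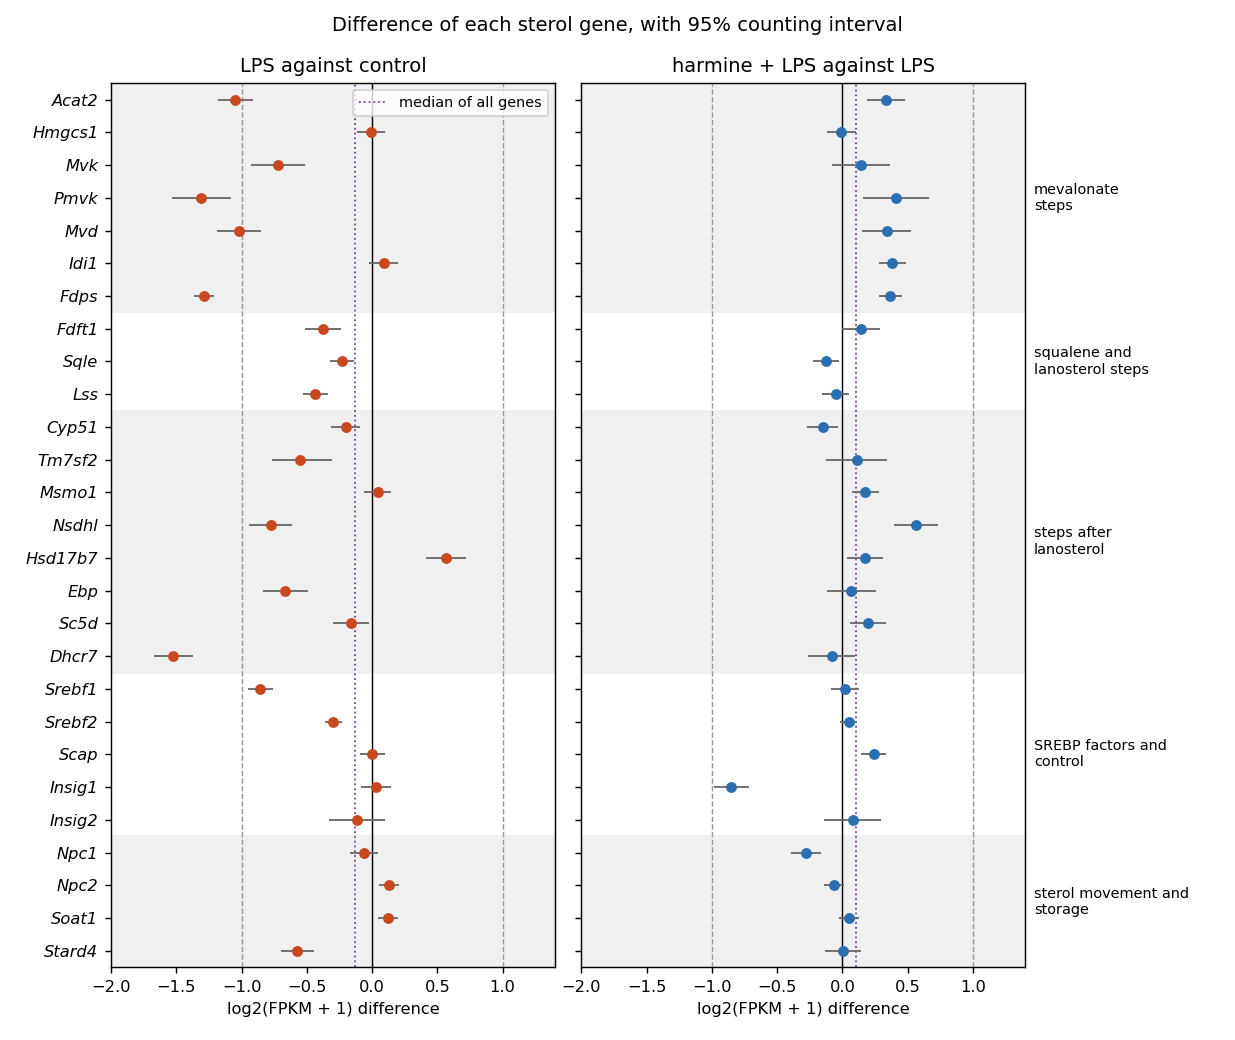
Differences in log2(FPKM + 1) of the 27 genes for LPS against control (left) and harmine plus LPS against LPS (right); bars are 95% counting intervals, dashed lines mark 2-fold and the dotted line the median of all genes. On the left 5 genes lie at or beyond 2-fold lower; on the right none does, and Insig1 is the lowest.

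The second comparison asked what harmine ahead of LPS changed in these genes. No gene of the 27 was 2-fold or more higher or lower than with LPS alone, beside 0.664% and 0.935% of all genes. One gene, Insig1, was 1.5-fold lower, beside 3.35% of all genes, and none was 1.5-fold higher, beside 5.30%. These shares are near the background. The median of the 27 genes was 0.08 log2 and that of all genes 0.10 log2. Median-of-ratios rescaling moved both, to -0.04 log2 for the 27 genes and -0.02 log2 for all genes.

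Insig1 (chromosome 5, 28071363 to 28078662) encodes a protein that holds SCAP in the endoplasmic reticulum when sterols are high. It was at 23.4 FPKM in control, 23.9 after LPS and 12.8 after harmine plus LPS. Control and LPS were alike and the harmine plus LPS library was low, 1.87-fold (1.69 to 2.06) below LPS, a difference of -0.85 log2. Of all genes compared, 1.45% had a lower difference. Its paralog Insig2 did not share this, with a ratio of 1.07 (0.889 to 1.28) between the same libraries. Among genes of synthesis the ratio ranged to both sides of 1: it was 0.894 (0.820 to 0.974) for Cyp51, 0.912 (0.849 to 0.980) for Sqle, 0.995 (0.918 to 1.08) for Hmgcs1 and 1.32 (1.22 to 1.42) for Idi1. Cyp51 and Sqle were thus slightly lower beyond counting error, at -0.15 and -0.13 log2, and at -0.29 and -0.26 log2 with median-of-ratios rescaling. The same rescaling made the higher value of Idi1 smaller, from 0.38 to 0.25 log2. Npc1 had the next lowest difference, -0.28 log2, at 5.33 after LPS and 4.21 FPKM after harmine plus LPS.

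Of the mevalonate genes, 6 of 7 had a higher value with harmine plus LPS than with LPS, all by less than 1.5-fold, with a median of 0.34 log2. A higher value was common in this comparison: 19 of the 27 members and 65.6% of all genes compared had one. The ratios were 1.38 (1.13 to 1.69) for Pmvk, 1.30 (1.22 to 1.38) for Fdps, 1.29 (1.12 to 1.48) for Mvd and 1.28 (1.15 to 1.42) for Acat2. For Mvk, at 1.12 (0.937 to 1.35), and for Hmgcs1 the interval included 1. Pmvk, Fdps, Mvd and Acat2 were higher by 0.41, 0.37, 0.34 and 0.33 log2. Median-of-ratios rescaling made these differences smaller, at 0.29, 0.23, 0.21 and 0.20 log2. Outside these steps Nsdhl had the highest difference of the 27, 0.56 log2, with a plain ratio of 1.53 (1.35 to 1.75). Dhcr7, the lowest gene with LPS, had a ratio of 0.929 (0.790 to 1.09), and Srebf1 one of 1.02 (0.937 to 1.10). For 13 of the 27 genes the interval of this ratio included 1. The LPS library enters both comparisons, on opposite sides, and its chance deviations do so too.

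**Figure D4:**
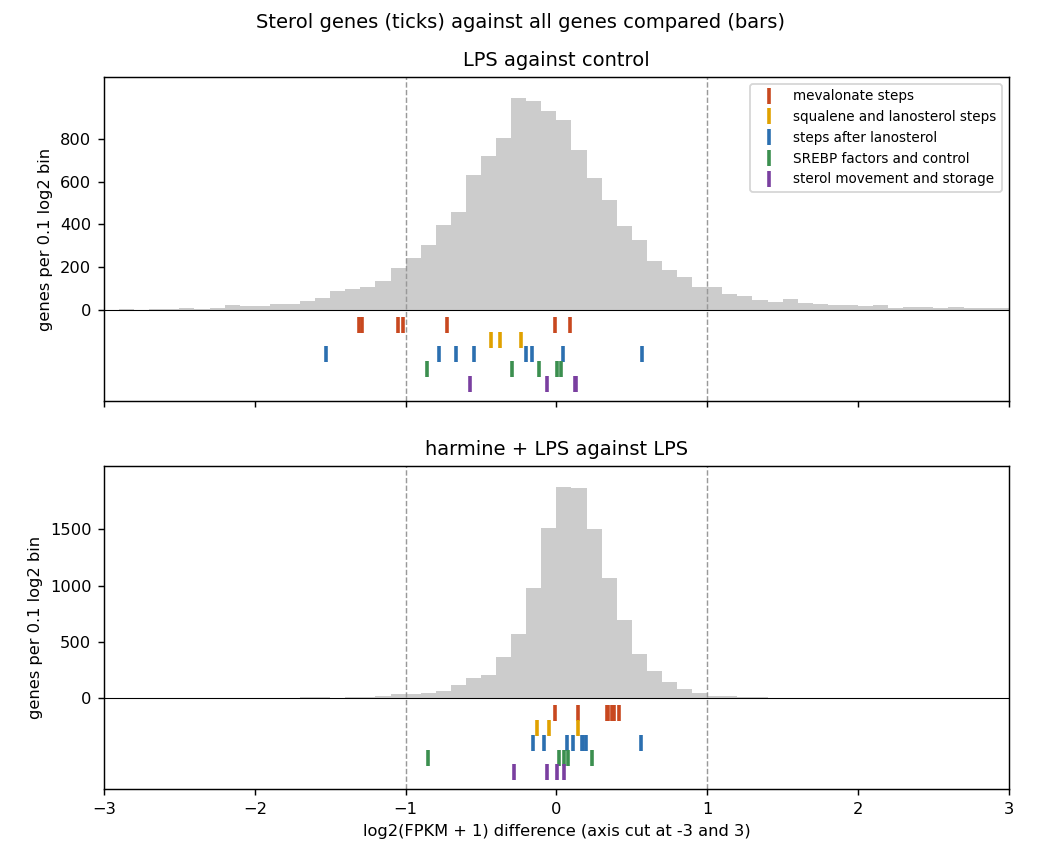
Number of genes per 0.1 log2 bin of the log2(FPKM + 1) difference (bars, 12197 genes) with the 27 sterol genes as ticks coloured by role, for LPS against control (top) and harmine plus LPS against LPS (bottom); dashed lines mark 2-fold. In the upper panel the mevalonate genes Acat2, Pmvk, Mvd and Fdps lie just beyond 2-fold lower, Mvk lies at -0.72, and Hmgcs1 and Idi1 lie near 0. The isolated tick near -0.85 in the lower panel is Insig1.

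Set directly against control, harmine plus LPS had 1 of 27 genes 2-fold or more lower, Dhcr7, beside 4.86% of all genes, and none 2-fold higher, beside 5.14%. At 1.5-fold 8 were lower, beside 13.5%, and 1 higher, Hsd17b7, beside 12.3%. The 8 were Acat2, Pmvk, Mvd, Fdps, Ebp, Dhcr7, Srebf1 and Insig1. Fdps and Pmvk lay just inside 2-fold on the log2(FPKM + 1) scale, at -0.92 and -0.89 log2. With median-of-ratios rescaling Fdps passed it, for 2 genes, beside 5.68% of all genes. The median was -0.36 log2 for the 27 genes and -0.02 log2 for all genes. This comparison shares a library with each of the other two, so the 3 sets of values are not independent.

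Neighbouring genes of the pathway were read from 6 further lists. None of 9 genes of SREBP cleavage and sterol-regulated degradation passed 1.5-fold with LPS, beside 11.7% of all genes higher and 19.3% lower. Mbtps1 and Mbtps2, the proteases that cut SREBP, were at 12.0 and 9.13 FPKM and at 6.09 and 8.34 FPKM in control and LPS. The largest difference in this list was that of Vcp, which acts in the degradation of proteins from the endoplasmic reticulum, at 0.55 log2. None of 11 genes of the non-sterol isoprenoid branch passed either, beside the same shares. Of the 11, 7 were below control and 4 above it, beside 39.8% of all genes above control. The differences farthest from 0 were those of Coq2 and Pdss1, which act in ubiquinone synthesis, and Rce1, a protease of prenylated proteins, at -0.44, -0.43 and -0.40 log2. Coq2 was at 11.9, 8.48 and 9.75 FPKM in control, LPS and harmine plus LPS. Ggps1, which lengthens farnesyl diphosphate for prenylation, was higher at 3.76, 5.15 and 5.82 FPKM, and Icmt, which methylates prenylated proteins, at 10.3, 11.1 and 16.1 FPKM. No gene of the branch that Fdps feeds thus came near the 2.49-fold difference of Fdps itself.

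The fatty acid targets of SREBP stood low with LPS: 5 of 9 compared genes (55.6%) were 2-fold or more lower with LPS, beside 7.21% of all genes, none higher, beside 5.79%, and the median was -1.48 log2. Scd2, a stearoyl-CoA desaturase, had the lowest difference of the list, -2.82 log2, at 237, 32.6 and 44.5 FPKM in control, LPS and harmine plus LPS. Scd1, Fads1 and Fads2, desaturases of fatty acids, were at 12.8, 2.95 and 3.69 FPKM, at 79.9, 22.4 and 24.2 FPKM and at 135.3, 36.2 and 37.0 FPKM. In each, control was high and both LPS libraries low. Fasn, the fatty acid synthase, was at 51.6, 52.8 and 55.0 FPKM, so this list too held a gene at its control level. With harmine plus LPS against LPS none of the 9 passed 1.5-fold, beside 5.30% of all genes higher and 3.35% lower, which is near the background.

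For lipoprotein uptake and sterol movement, 3 of 12 compared genes (25%) were 2-fold or more lower with LPS, beside 7.21% of all genes, and 2 higher, beside 5.79%. In lists this short 1 gene moves the share by several percentage points. Pltp, a phospholipid transfer protein, was at 23.6, 7.58 and 8.39 FPKM, and Lipa, the lysosomal lipase that frees cholesterol from its esters, at 36.9, 13.7 and 14.0 FPKM. Gramd1a and Gramd1b, which carry cholesterol from the plasma membrane to the endoplasmic reticulum, stood higher, at 11.7, 28.7 and 20.8 FPKM and at 7.11, 16.4 and 14.1 FPKM. With harmine plus LPS against LPS none of the 12 passed 1.5-fold, beside 5.30% of all genes higher and 3.35% lower, which is near the background. Lipa and Pltp were thus high in control and low in both LPS libraries, the order reversed for the Gramd1 genes.

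Among 4 redox partners of the sterol enzymes, 1 was 2-fold lower with LPS, beside 7.21% of all genes, and none 2-fold higher, beside 5.79%. At 1.5-fold 1 was lower, beside 19.3% of all genes, and 1 higher, beside 11.7%. Por, the reductase that serves Cyp51 and Sqle, was at 37.0, 71.3 and 90.0 FPKM, and Cyb5a, a cytochrome b5, at 32.4, 15.3 and 15.5 FPKM. Of 6 compared genes of efflux and oxysterol synthesis, 2 were 2-fold or more lower with LPS, beside the same 7.21%, and none 2-fold higher on the log2(FPKM + 1) scale, beside 5.79%. Abca1, a main sterol exporter, went the other way at low levels, 0.423, 1.18 and 0.757 FPKM from 292, 735 and 503 deposited counts. Its plain ratio was 2.78-fold higher with LPS, but 0.61 log2 with the added 1 FPKM. The lower genes were Abcg1, another sterol exporter, at 10.3, 1.76 and 6.14 FPKM, and Cyp27a1, which makes 27-hydroxycholesterol, at 7.67, 1.28 and 2.02 FPKM. Abcg1 was the 1 gene of the 6 lists that was 2-fold or more higher with harmine plus LPS than with LPS, by 1.37 log2. The lists held 9, 11, 12, 9, 4 and 6 compared genes, and 0.664% of all genes were 2-fold or more higher in that comparison. Ch25h, which makes 25-hydroxycholesterol, had no counts in control and 8 and 9 deposited counts in the other libraries, under the floor of 12 counts (3 read pairs), so no fold is given.

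Some values are uncertain because reads can be shared with other genes. Of the stretches of 75 bases in annotated Acat2 transcripts (GENCODE M21), 33.9% occur also in Acat3, a near copy at 2.59, 1.30 and 2.23 FPKM in control, LPS and harmine plus LPS. For Fdps, 7.47% occur in Gm3571, at 27.4, 9.40 and 13.2 FPKM, and 21.9% in the overlapping gene Gm43738, at 0.200 FPKM in control and 0 FPKM in the other libraries. For Idi1, 16.7% occur in Gm13502, at 8.00, 8.48 and 12.7 FPKM. Tm7sf2, the member with the lowest level, shares 532 exon bases on the same strand, and 8.83% of its stretches, with Vps51, at 11.2, 7.77 and 9.44 FPKM. Acat3, Gm3571, Gm13502 and Vps51 thus had the same order of libraries as the gene they share sequence with. How many of the few Tm7sf2 counts belong to Vps51 was not tested, so its 2.40-fold difference is uncertain. Fdft1 shares 16.6% with Ctsb on the opposite strand, at 263, 282 and 270.2 FPKM, and Acat2 9.19% with Tcp1, in either orientation, at 110.4, 116.8 and 118.1 FPKM. The sources used here do not say whether counting used the strand, so some Fdft1 and Acat2 counts could belong to these abundant genes.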

How the data were processed

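The authors deposited 1 gene table. It holds FPKM values (scaled by length and depth) per the file headers and counts per gene, deposited without normalization; 0 further value columns were left unread. Tools listed in the submitters' processing notes are HISAT2 2.2.1, StringTie 2.1.6, cutadapt 1.9, edgeR and DESeq2, and the build is mm10, with roles, strand setting and gene filter not given in the sources used here. Per the labels, libraries were poly(A)-selected, dUTP-marked and sequenced as pairs of 150 bases.

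From the deposited FPKM, log2(FPKM + 1) differences were computed for genes reaching 1 FPKM in any library, with no test and no count model because each group holds 1 library. A gene was counted at 2-fold or 1.5-fold on that scale. Intervals are exact (Clopper-Pearson) at 95% on read pairs, 4 counts each; reads carry no molecular identifiers, so intervals and the floor of 3 pairs cover counting error only. The code was tested on simulated data. Positions of genes come from the deposited table (mm10). Promoters are RefSeq's, and shared sequence was searched in GENCODE M21 transcripts. Every member is named, and up to 4 genes of each further list, those with the largest difference. Mbtps1, Mbtps2, Fasn, Ch25h, Cd68, Lyz2, Csf1r, Cd14 and genes sharing sequence with members were named after their values were seen. So were Alb, Sftpb, Ager, Hopx and Apoa1. Alternatives were pseudocounts of 0.1 and 5 FPKM, 3 rescalings, CPM, 2 filters and the 1.5-fold threshold. The members and lists were chosen with earlier results of these data known. Python 3.11.15, pandas 2.3.3, numpy 2.4.6, scipy 1.17.1 and matplotlib 3.10.9 were used.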

Additional observations from a re-analysis of the deposited data

How the results depend on the processing

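Brackets after the next counts of members give the share of all genes in the same setting. The number 2-fold or more lower with LPS, 5 (7.21%), was 3 with upper-quartile rescaling (5.56%) and 1 with a pseudocount of 5 FPKM (2.39%). At the 1.5-fold threshold it was 9 (19.3%). A larger pseudocount shrinks every difference by construction. The median of the members, -0.30 log2, was -0.16 with upper-quartile rescaling and -0.19 with a pseudocount of 5 FPKM. For harmine plus LPS against LPS, 1 member was lower at 1.5-fold (3.35%). For harmine plus LPS against control, the 1 lower member (4.86%) became 2 with median-of-ratios rescaling (5.68%) and 8 at 1.5-fold (13.5%). In that comparison 1 member was higher at 1.5-fold (12.3%), and the median of -0.36 log2 was -0.22 with a pseudocount of 5 FPKM. No member at 2-fold changed direction under the pseudocounts, rescalings, CPM and filters. Rescaling turned the sign of small harmine differences, among them those of Ebp, Insig2, Srebf1, Srebf2, Soat1 and Stard4. The balance of all genes depended on the settings: of the calls for harmine plus LPS against LPS, 41.5% were higher as deposited and 25% with median-of-ratios rescaling. The share was 60.8% with a pseudocount of 0.1 FPKM and no rescaling. It was 57.6% with TPM rescaling, which also makes the added 1 and the filter smaller relative to the values (15251 genes compared), so that move cannot be put down to the scaling alone. The calls for LPS against control were 44.5% higher as deposited and 55.0% with upper-quartile rescaling. With 1 library per group, no replicate could be left out. No paired analysis was possible because each group holds 1 library and no test was run. Counting error limits Tm7sf2 most.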
